A study of Mus musculus with 2 samples.

Results

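The thrombospondins are 5 genes in the mouse, Thbs1, Thbs2, Thbs3, Thbs4 and Comp (cartilage oligomeric matrix protein, the fifth thrombospondin), chosen here by name. All 5 are among the 24866 genes of the expression table. They were followed over 653 of 658 wells, those with at least 500 detected genes and at most 20% of counts from mitochondrial (mt-) genes. The wells hold single GFP+ cells from the femurs of 2 littermate C57/B6 mice at postnatal day 6, of genotype CTSK-cre+ mTMG, with 1 plate per animal. Both animals carry the same alleles and had no treatment, and there is no control group. In mTMG mice Cre turns on membrane GFP for good. Cre follows the promoter of Ctsk (cathepsin K, known best from osteoclasts), so the sort takes cells that use this promoter, or whose forebears used it. Animal 1 (plate 47) gave 318 cells and animal 2 (plate 48) gave 335, and what differs between animals cannot be told apart from what differs between plates.

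Thrombospondins are secreted, calcium-binding glycoproteins of the matrix that bind collagens, proteoglycans, growth factors and cell surface receptors. Thbs1 and Thbs2 form trimers and carry type 1 (properdin-like) repeats; Thbs1 is known for activating latent TGF-beta through these repeats, and both inhibit angiogenesis. Thbs3, Thbs4 and Comp form pentamers and lack the type 1 repeats. Comp is abundant in cartilage and tendon, where it binds collagens and matrilins, and mutations of human COMP cause pseudoachondroplasia. Thbs4 is known from tendon and muscle.

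The 5 genes lie on 5 chromosomes (GRCm38, the build that the submitters name mm10; GENCODE M21 gene models). Thbs1 (ENSMUSG00000040152.8) is at chr2:118111876-118127133 on the plus strand, and Thbs2 (ENSMUSG00000023885.9) at chr17:14665500-14694235 on the minus strand. Thbs3 (ENSMUSG00000028047.11) is at chr3:89215180-89226837 on the plus strand, Thbs4 (ENSMUSG00000021702.7) at chr13:92751590-92794818 on the minus strand, and Comp (ENSMUSG00000031849.9) at chr8:70373558-70382066 on the plus strand. The Mtx1 gene model runs on the opposite strand over the whole of Thbs3, 11658 bases, and a small antisense RNA gene, Gm29233, lies inside Thbs1. Whether the authors' counting used strand is not given in the sources used here, so Thbs3 counts could hold some Mtx1 reads. Mtx1 itself stood at 75.2 CPM (each library scaled to the same total) in animal 1 and 87.6 in animal 2. Its Spearman correlation with Thbs3 over cells was -0.05 in animal 1 and 0.03 in animal 2.

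Promoters from RefSeq (GRCm38.p6) were at hand for 3 of the 5 genes, and they are shown because Thbs2 and Thbs4 were both called higher in the tendon and ligament-like class, described below, while Thbs3 was called in no class. Each sequence is the 250 bases before the annotated start, 5′ to 3′ on the gene's strand, from chr17:14694263-14694512 (minus) for Thbs2, chr13:92794819-92795068 (minus) for Thbs4 and chr3:89214930-89215179 (plus) for Thbs3. Capitals mark E-boxes, CANNTG on either strand, the motif that basic helix-loop-helix factors such as the tendon factor Scx are known to bind.
Thbs2: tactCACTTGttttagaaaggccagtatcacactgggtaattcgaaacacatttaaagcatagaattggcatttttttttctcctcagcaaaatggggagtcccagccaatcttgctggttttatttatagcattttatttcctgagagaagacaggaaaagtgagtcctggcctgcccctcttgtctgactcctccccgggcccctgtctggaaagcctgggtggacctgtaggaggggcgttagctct
Thbs4: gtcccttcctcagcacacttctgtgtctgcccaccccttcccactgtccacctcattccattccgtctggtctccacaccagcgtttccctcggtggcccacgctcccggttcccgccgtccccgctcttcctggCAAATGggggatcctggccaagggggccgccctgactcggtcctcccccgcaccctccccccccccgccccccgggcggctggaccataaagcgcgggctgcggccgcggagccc
Thbs3: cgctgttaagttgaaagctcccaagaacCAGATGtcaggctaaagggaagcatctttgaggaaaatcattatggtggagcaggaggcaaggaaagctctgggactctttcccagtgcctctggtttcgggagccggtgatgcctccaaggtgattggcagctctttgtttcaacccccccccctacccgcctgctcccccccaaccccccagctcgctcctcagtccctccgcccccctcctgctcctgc
Each window holds 1 E-box, CACTTG in Thbs2, CAAATG in Thbs4 and CAGATG in Thbs3, and 66.2% of 32851 promoter windows of this length hold at least 1. GC boxes (GGGCGG on either strand) number 3 in Thbs4, 1 in Thbs3 and 0 in Thbs2, against 32.7% of all windows with at least 1. The base composition differs as well, with 46.8% G and C in Thbs2, 58.8% in Thbs3 and 70.8% in Thbs4. In the RefSeq table Mtx1 starts 1273 bases before Thbs3 and runs away from it, so that start gives no overlap; only the longer GENCODE model covers Thbs3.

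The kept cells had a median of 101207 counts and 2185.5 detected genes in animal 1 and 119126 counts and 2177 genes in animal 2, with 9767 to 675621 counts per cell. Well barcodes are reused between plates (95 in common), and no pair of cells had identical counts. Clustering on 122 marker genes, none of them a thrombospondin, gave 10 classes named by their markers, and all of the class comparisons below rest on these rebuilt names. In order of size they are class 1, articular and synovial-like (135 cells); class 2, fibroblast-like (114); class 3, chondrocyte-like (109); class 4, chondrocyte-like with fewer chondrocyte markers raised (65; 6 of 15); class 5, periosteal progenitor-like (60); and class 6, tendon and ligament-like (59, led by Kera and Tnmd). Class 7 is fibroblast-like with Pi16 and Ly6a (47), class 8 osteoblast-like (25), class 9 chondrocyte-like with Epyc, Matn1 and Col10a1 (23), and class 10 pericyte and smooth muscle-like (16, of which 4 in animal 2; not tested). Over all kept cells, no gene of the osteoclast, endothelial, macrophage, megakaryocyte or skeletal muscle lists reached 5 counts in 5% of cells. Within single classes some did. In class 8 the osteoclast list summed to 326 CPM in animal 1 and 888 in animal 2, with 1 gene past that mark. Mmp9, a gene of that list, is among the 10 genes with the highest fold in class 8. No doublet caller was run, since each well was sorted as a single cell.

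Each gene was found in both animals. Thbs2 stood at 533 CPM of summed counts in animal 1 and 299 in animal 2, and had at least 5 counts in 64.5% and 48.1% of cells. Thbs1 stood at 246 and 264 CPM, in 39.3% and 43.3% of cells. Comp stood at 231 and 245 CPM, in 38.1% and 41.8% of cells, and Thbs3 at 146 and 114 CPM, in 31.8% and 32.2%. Thbs4 was found in the fewest cells, 23.6% and 20.6%, at 234 and 203 CPM. Thbs4 counts were the most concentrated: the 10% of cells with most counts held 78.3% of all Thbs4 counts in animal 1 and 82.1% in animal 2, against 43.4% and 50.2% for Thbs2. The wells hold read counts. Poisson intervals given here treat each read as independent, which was not tested, so they may be too narrow. Intervals for shares of cells cover the sampling of cells within 1 animal only. Neither kind covers differences between animals.

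Across the 9 tested classes, 19 of 45 gene and class pairs passed the test, 11 higher and 8 lower. The background over all 123300 pairs of gene and class was 1.07%, with 0.719% higher and 0.355% lower. By class the share of 13700 genes called was 0.226% in class 1, 1.04% in class 2, 0.672% in class 3, 0.839% in class 4 and 0.226% in class 5. It was 0.533% in class 6, 3.31% in class 7, 1.47% in class 8 and 1.36% in class 9. The test is edgeR's quasi-likelihood test on counts summed per animal and class, with the animal as a block and Benjamini-Hochberg adjustment over all genes. Its fold compares a class with the geometric mean over the remaining 8. Near-empty classes pull this mean down, so a fold can exceed the ratio to the plain mean of those classes. The classes were drawn from other genes of the same cells, so these p-values do not come from an independent sort. They weigh a class difference against the variation left after class and animal are fitted, with 8 residual degrees of freedom. With coarser clustering (Leiden resolution 0.5), where classes 3, 4 and 9 fall into 1 cluster and classes 5 and 6 into another, the calls of Thbs1 in classes 5 and 8, Thbs4 in class 2 and Comp in class 8 were lost (edgeR, adjusted p = 0.303, 0.0948, 0.0873 and 0.133). With gates on marker lists in place of clusters, 1 of 45 pairs passed, Thbs4 in tendon and ligament-like cells. Calls over all genes fell from 1325 to 382. Those gates put 13 and 30 cells on the neutrophil list, none of whose genes reached 5 counts in 5% of cells. Classes 3, 4 and 9 share a gate, and so do classes 2 and 7. A shared gate or cluster gives the same result to each of its classes, so these pairs are not separate tests. A plot of the fold changes shows which gene stood out where.

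**Figure D1:**
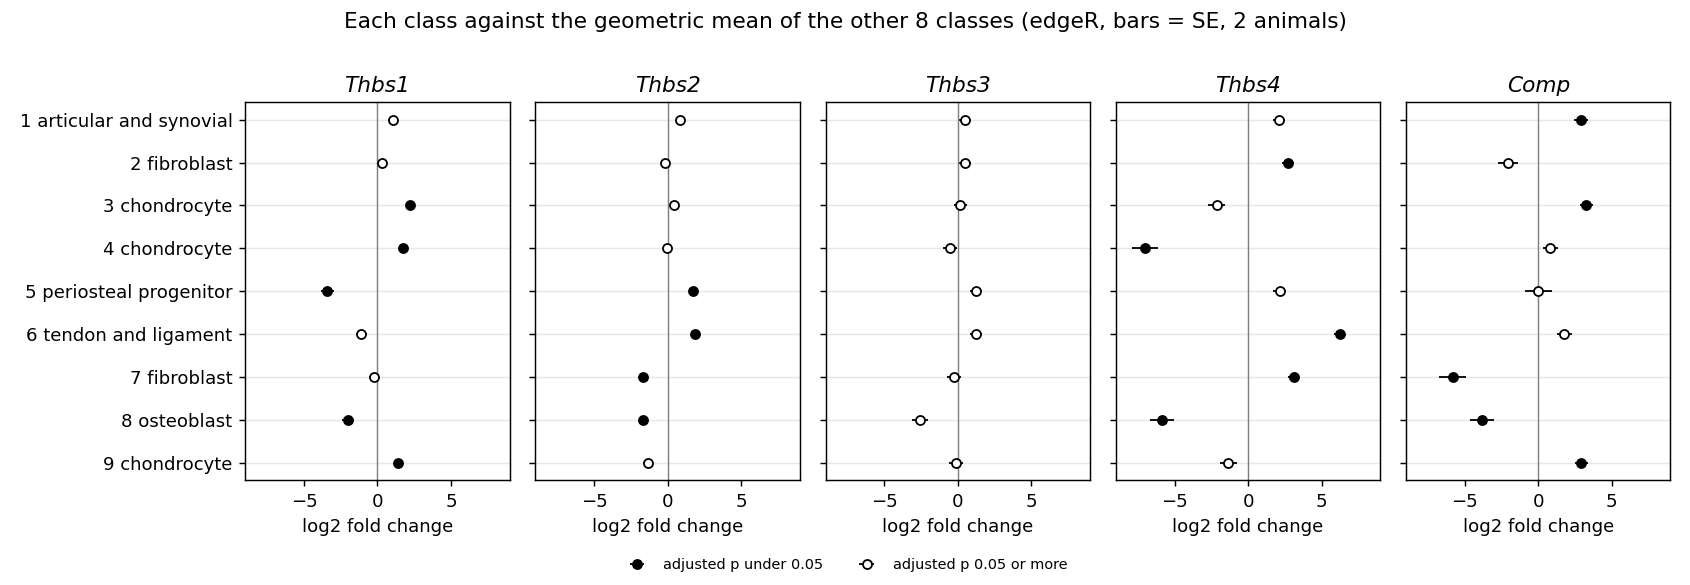
Log2 fold change (x axis) of each gene in each of 9 cell classes (y axis) relative to the geometric mean over the remaining 8 classes; points are edgeR estimates over 2 animals, bars their SE, filled points adjusted p under 0.05. Filled points number 19, and Thbs3 has none; the lowest points of Thbs4 and Comp rest on classes with few counts.

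Thbs1 was highest in the chondrocyte-like classes. In class 3 it stood at 565 CPM in animal 1 and 520 in animal 2, in class 4 at 450 and 358, and in class 9 at 382 and 371. Every other class was lower in both animals, down to 18.6 and 17.6 CPM in periosteal progenitor-like class 5, where 2 of 40 and 1 of 20 cells had 5 counts. The ranges of the 2 animals do not overlap between class 3 and class 4, and overlap between class 4 and class 9. Log2 fold changes by edgeR were 2.24 ± 0.27 (SE; adjusted p = 0.00248) in class 3, 1.72 ± 0.28 (adjusted p = 0.0185) in class 4 and 1.43 ± 0.29 (adjusted p = 0.0378) in class 9. Thbs1 was lower in class 5, by a log2 fold change of -3.42 ± 0.44 (edgeR, adjusted p = 0.0102), and in osteoblast-like class 8, by -2.01 ± 0.40 (adjusted p = 0.0326). In class 8 the animals stood apart, at 77.1 and 19.5 CPM. Tendon and ligament-like cells held 71.9 and 72.6 CPM of Thbs1, below 163 and 173 in the pooled fibroblast-like cells, a difference that did not pass the test (edgeR, adjusted p = 0.554). The call in class 9 was lost without a filter on low counts (edgeR, adjusted p = 0.0508) and after thinning (adjusted p = 0.0740). Platelets and their precursors are known for Thbs1. The 3 megakaryocyte markers present in the expression table summed to 19.9 and 4.55 CPM in class 3, where Thbs1 was highest. They summed to 12.0 and 0.468 CPM in class 4 and to 41.2 and 0 CPM in class 9. The part of such cells in the level of Thbs1 was not tested.

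Thbs2 was highest in periosteal progenitor-like and tendon and ligament-like cells, which could not be ordered between themselves. Class 5 stood at 1078 CPM in animal 1 and 715 in animal 2, and 37 of 40 and 17 of 20 of its cells had at least 5 counts. Class 6 stood at 1046 and 744 CPM, with 28 of 36 and 19 of 23 cells. Both lie above every other class in the same animal. The log2 fold changes by edgeR were 1.75 ± 0.23 in class 5 (adjusted p = 0.0123) and 1.84 ± 0.23 in class 6 (adjusted p = 0.00357). Thbs2 was lower in fibroblast-like class 7, at 116 and 109 CPM (log2 -1.64 ± 0.32, edgeR, adjusted p = 0.0150), and in osteoblast-like class 8, at 112 and 117 CPM (log2 -1.66 ± 0.32, adjusted p = 0.0280). The other fibroblast-like class, class 2, held 439 CPM in animal 1 and 161 in animal 2, and in 8 of 10 classes Thbs2 was higher in animal 1, by up to 2.73-fold. In the order of levels, classes 1, 3, 2 and 4 overlap between neighbours, and so do classes 8, 7 and 10 at the low end.

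Thbs3 passed the test in 0 of the 9 classes by edgeR; 3 of the 9 comparisons had an unadjusted p under 0.05, and DESeq2 called 1. Its levels in the 2 top classes were 239 and 209 CPM in class 5 and 210 and 213 CPM in class 6. By the mean of the 2 animals, fibroblast-like class 2 followed with 143 and 150 CPM, and articular and synovial-like class 1 with 133 and 136. In animal 1 alone, class 9 stood above both, at 186 CPM. At the low end, osteoblast-like class 8 held 42.0 and 9.75 CPM, with 5 counts in 2 of 15 and 1 of 10 cells. The difference in class 8 was a log2 value of -2.58 ± 0.57 (edgeR, adjusted p = 0.0519), and it was called without the cell that held the most Thbs3 counts (adjusted p = 0.0390), after thinning (0.00311) and by DESeq2 (4.26e-05). In pericyte and smooth muscle-like class 10, Thbs3 had 2 counts in animal 1 and 0 in animal 2. By ratio the animals differed most in class 8, by 4.31-fold, and then in class 9, at 186 and 46.7 CPM (3.99-fold). Both ratios rest largely on single cells. In class 8, 1 cell held 88.0% of the Thbs3 counts of animal 1, and 1 cell held 100% of those of animal 2. In class 9 the cell with most counts held 59.7% in animal 1 and 36.2% in animal 2.

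Thbs4 was concentrated in the tendon and ligament-like class. There it stood at 1724 CPM in animal 1 and 1672 in animal 2, with at least 5 counts in 31 of 36 and 20 of 23 cells (86.1% and 87.0%). This class held 66.7% of all Thbs4 counts of animal 1 and 47.9% of animal 2, from 11.3% and 6.87% of the cells. By the mean of the 2 animals the next classes were the fibroblast-like ones, class 7 with 300 and 252 CPM and class 2 with 196 and 233 CPM. In animal 2 alone, class 5 stood above both, at 255 CPM. Class 6 and class 7 do not overlap. In chondrocyte-like cells Thbs4 was near the floor: class 4 held 1 count in animal 1 (0.428 CPM, exact Poisson 95% interval 0.0108 to 2.38) and 2 in animal 2 (0.468 CPM, 0.0567 to 1.69). Class 3 held 10.9 and 8.10 CPM, with 83.1% and 92.2% of these counts from 1 cell. Osteoblast-like class 8 held 3 counts in animal 1 and 2 in animal 2, although its cells were the deepest, with a median of 164064 counts. The test called Thbs4 higher in class 6 (log2 6.23 ± 0.36, edgeR, adjusted p = 6.86e-06). It also called class 7 (3.10 ± 0.39, adjusted p = 0.00149) and class 2 (2.71 ± 0.40, adjusted p = 0.00877) higher, and classes 4 and 8 lower (edgeR, adjusted p = 0.00372 and 0.00484). These folds rest on a geometric mean that the near-empty classes pull down. Against the plain mean of the other classes, class 7 was level or below (269 against 283 TMM-scaled CPM in animal 1, 250 against 294 in animal 2) and class 2 was below (186 against 293, and 224 against 298). Fitted folds for classes 4 and 8 depend on the prior count and are not given. In class 5 the animals differed most for Thbs4, with 41.3 and 255 CPM.

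**Figure D2:**
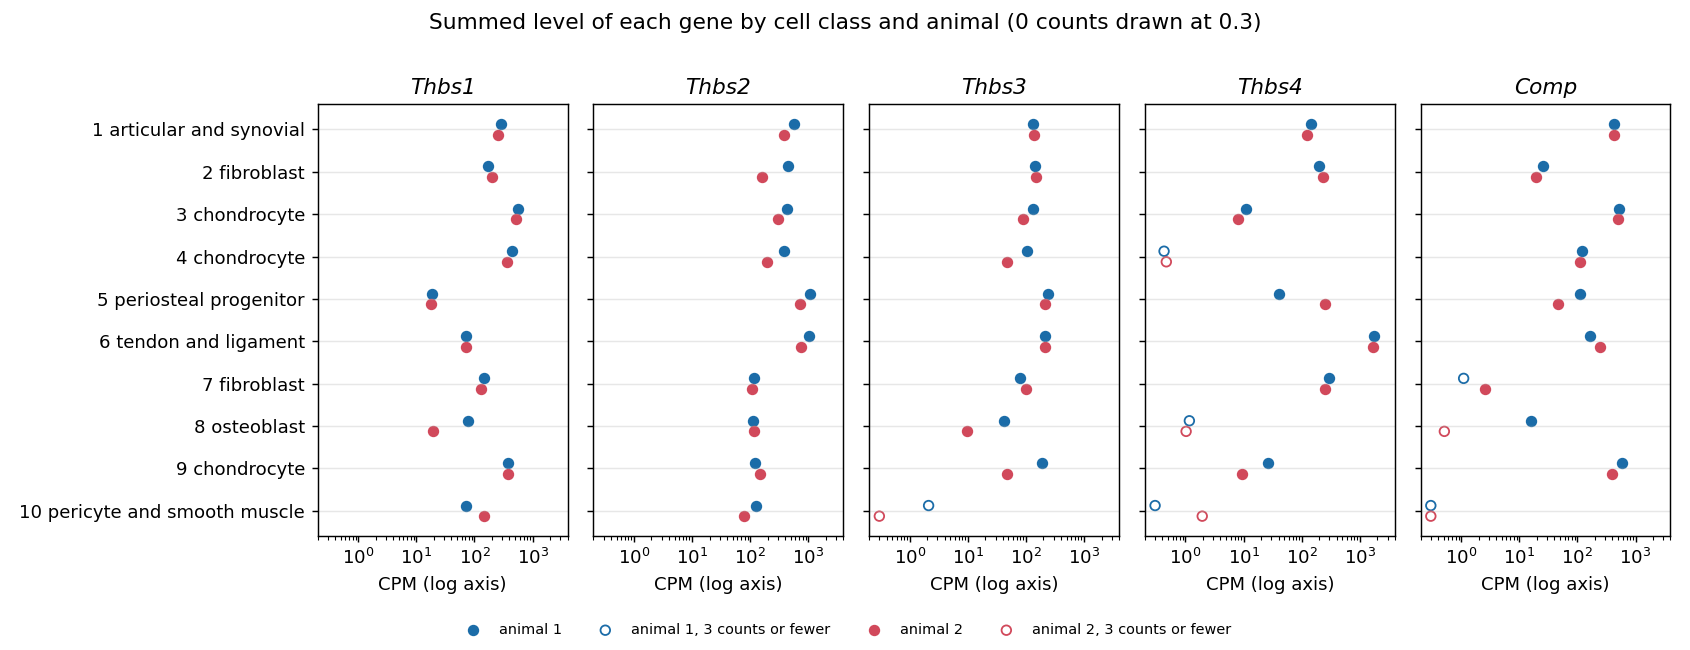
CPM of summed counts (x axis, log) of each gene by cell class (y axis) in animal 1 (blue) and animal 2 (red); open points rest on 3 counts or fewer, and 0 counts are drawn at 0.3. Thbs4 reaches 1724 and 1672 CPM in tendon and ligament-like cells, while Thbs3 stays between 46.7 and 239 CPM in classes 1 to 7 and 9.

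Comp was high in cartilage-like and articular classes and near the floor in the Pi16 fibroblast-like class. It stood at 523 and 494 CPM in class 3, at 587 and 387 in class 9 and at 424 and 422 in articular and synovial-like class 1. In class 9, 53.2% of the Comp counts of animal 1 and 35.1% of those of animal 2 came from 1 cell. The mean of per-cell CPM in class 9 was 350 in animal 1 and 469 in animal 2. At least 5 counts were found in 41 of 54 and 43 of 55 cells of class 3. The log2 fold changes by edgeR were 3.26 ± 0.45 in class 3 (adjusted p = 0.00613), 2.93 ± 0.46 in class 9 (adjusted p = 0.0100) and 2.92 ± 0.46 in class 1 (adjusted p = 0.0255). These folds rest on a geometric mean that near-empty classes pull down. Against the plain mean of the others, class 1 stood at 452 against 195 TMM-scaled CPM in animal 1 and 437 against 169 in animal 2. In the same order, class 3 stood at 577 against 180 and 529 against 157. Class 9 stood at 532 against 185 and 383 against 176. The third chondrocyte-like class, class 4, held 120 and 110 CPM. Tendon and ligament-like class 6 held 168 and 243 CPM, with Comp in 12 of 36 and 12 of 23 cells, and was not called by edgeR (log2 1.78 ± 0.51, adjusted p = 0.200); after thinning it was (adjusted p = 0.00516), and by DESeq2 (0.00535). This fold too rests on a geometric mean that near-empty classes pull down: against the plain mean of the other classes, Comp in class 6 was lower in animal 1 (179 against 229 TMM-scaled CPM) and higher in animal 2 (251 against 192). In fibroblast-like class 7, Comp had 2 counts in animal 1 and 11 in animal 2, which is 1.10 CPM (exact Poisson 95% interval 0.133 to 3.98) and 2.57 CPM (1.28 to 4.60). In osteoblast-like class 8 it had 41 counts and 1 count, 95.1% of the 41 from 1 cell. Both were called lower by edgeR (adjusted p = 0.00551 and 0.0438). Class 10 had 0 counts in either animal. By the limit of 3 counts this allows up to 3.17 CPM in animal 1 and 5.83 in animal 2. The exact Poisson 95% interval reaches higher, to 3.90 CPM in animal 1 and 7.17 in animal 2. Class 2 held 25.3 and 19.1 CPM.

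A plot of the share of cells with each gene gives each class with its interval. Thinning every cell to 20000 counts, which left out 3 cells of animal 1 and 0 of animal 2, and asking for 1 count gave Thbs4 in 86.1% and 87.0% of class 6 cells, the same shares as before. In class 4 the thinned shares of Thbs4 were 0% and 2.44%. For Comp in class 3, the share was 75.9% and 78.2% both before and after thinning. Within cells that had at least 5 counts, the median level of Thbs4 was 1816 and 1362 CPM in class 6 and 525 and 408 CPM in class 7, higher in class 6 in both animals, as was the share of cells.

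**Figure D3:**
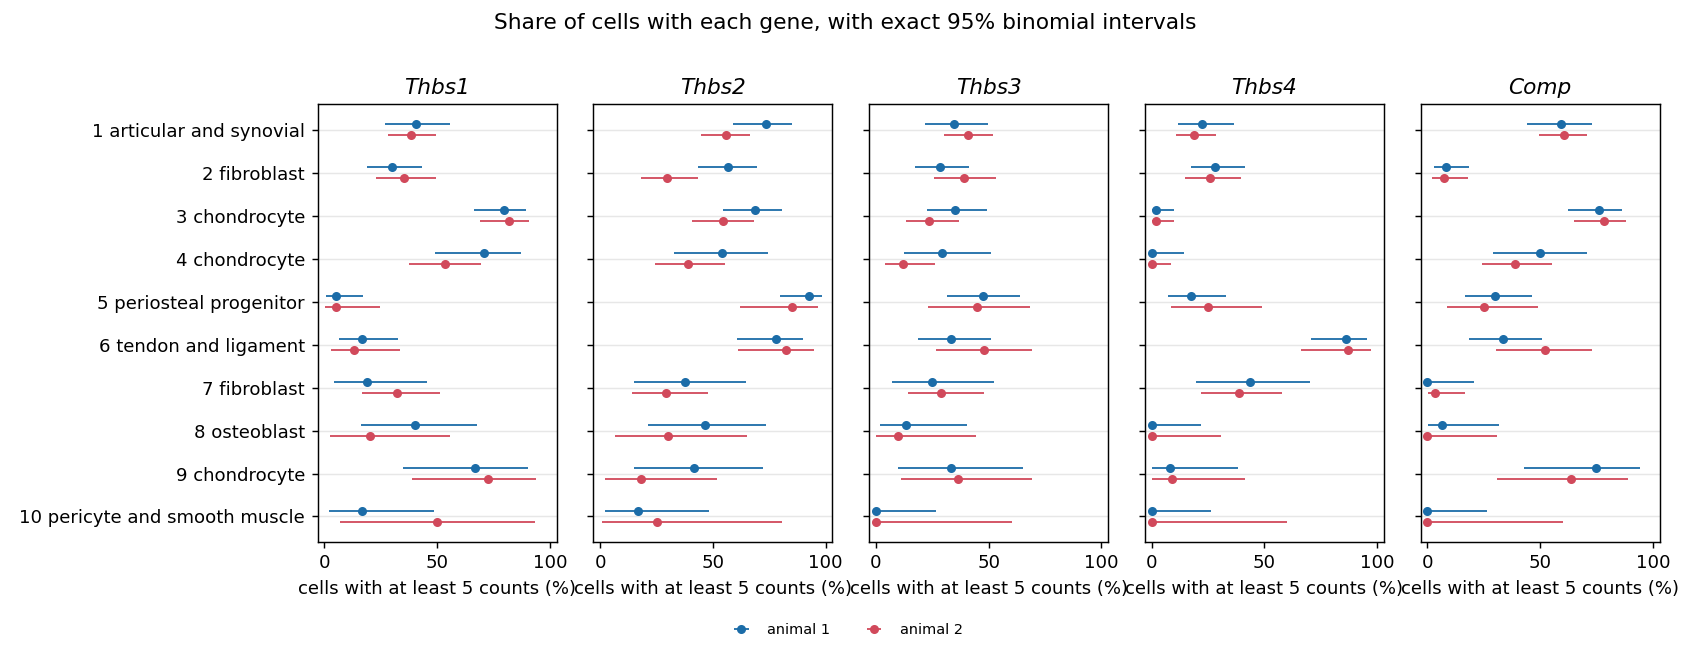
Percent of cells with at least 5 counts of each gene (x axis) by cell class (y axis) in animal 1 (blue) and animal 2 (red), with exact Clopper-Pearson 95% intervals as bars. Comp is found in 75.9% and 78.2% of class 3 cells, and Thbs4 in 86.1% and 87.0% of class 6 cells.

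Tendon and ligament-like cells were compared with the 3 chondrocyte-like classes, and 3 of 5 genes were called, against a background of 1.57% of genes (1.09% higher and 0.474% lower). Thbs4 stood at 1724 CPM against 11.7 in the pooled chondrocyte-like cells of animal 1, a 147-fold ratio, and at 1672 against 5.99 in animal 2, a 279-fold ratio (edgeR, adjusted p = 9.97e-06). Of the chondrocyte-like Thbs4 counts, 115 of 130 in animal 1 and 78 of 85 in animal 2 came from 2 cells, so the size of both ratios rests on those cells. Thbs2 was 2.91-fold and 3.05-fold higher by the pooled CPM (edgeR log2 1.91 ± 0.27, adjusted p = 0.00439). Thbs1 went the other way, 7.01-fold and 6.20-fold lower in tendon and ligament-like cells (edgeR log2 -2.56 ± 0.43, adjusted p = 0.0115). Comp was 168 against 451 CPM in animal 1 and 243 against 363 in animal 2, and did not pass the test (edgeR log2 -0.50 ± 0.65, adjusted p = 0.898). Thbs3 did not either (log2 1.24 ± 0.47, edgeR, adjusted p = 0.270). With the coarser clusters Thbs4 alone was called (Thbs1 adjusted p = 0.0602, Thbs2 0.181, edgeR), and with the gates 0 of 5.

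Against the 2 fibroblast-like classes, 3 of 5 genes were called higher in tendon and ligament-like cells, with a background of 0.54% (0.445% higher and 0.0949% lower). Comp stood at 168 against 19.7 CPM in animal 1 and 243 against 12.3 in animal 2 (edgeR log2 5.09 ± 0.70, adjusted p = 0.00892). Thbs2 stood at 1046 against 365 CPM and 744 against 140 CPM (edgeR log2 2.45 ± 0.30, adjusted p = 0.00520). Thbs4 stood at 1724 against 220 CPM and 1672 against 241 CPM (edgeR log2 2.95 ± 0.53, adjusted p = 0.0383). Thbs3, at 210 against 129 and 213 against 131 CPM, was not called (log2 0.98 ± 0.51, edgeR, adjusted p = 0.656). The call of Thbs4 was lost with the coarser clusters (edgeR, adjusted p = 0.128), and with the gates 0 of 5 were called.

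Many cells held counts of several thrombospondin genes. Of 653 cells, 88 had none of the 5 at 5 counts, 160 had 1, 193 had 2, 150 had 3, 56 had 4 and 6 had all 5. The leading combinations differed by class. In chondrocyte-like class 3, 33 of 109 cells had Thbs1, Thbs2 and Comp and no other member. In tendon and ligament-like class 6, 17 of 59 cells had Thbs2 and Thbs4 alone. Periosteal progenitor-like cells most often had Thbs2 alone (14 of 60) or Thbs2 with Thbs3 (14 of 60). In the osteoblast-like class 10 of 25 cells had none, and in the pericyte and smooth muscle-like class 11 of 16.

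Co-detection was set against the product of the 2 genes' shares of cells, as a description with no test. Over all cells Thbs1 and Thbs4 met in fewer cells than that product, 20 against 29.5 in animal 1 and 21 against 29.9 in animal 2 (ratios 0.678 and 0.703). Thbs4 and Comp also met in fewer, with ratios 0.806 and 0.867. Thbs1 and Comp met in more, 63 against 47.6 and 74 against 60.6 cells (ratios 1.32 and 1.22). With the product taken within each class and summed, these ratios moved to 1.12 and 1.09 for Thbs1 with Thbs4, 1.05 and 1.03 for Thbs4 with Comp, and 0.992 and 1.02 for Thbs1 with Comp. In all, 6 of 10 pairs were above 1 in both animals over all cells and 7 of 10 within classes, while 2 were below 1 over all cells and 0 within classes. The pair with the highest ratios within classes was Thbs3 with Comp in animal 1 (1.30) and Thbs3 with Thbs4 in animal 2 (1.29). Depth varies between cells of a class, and its part in ratios above 1 was not tested.

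**Figure D4:**
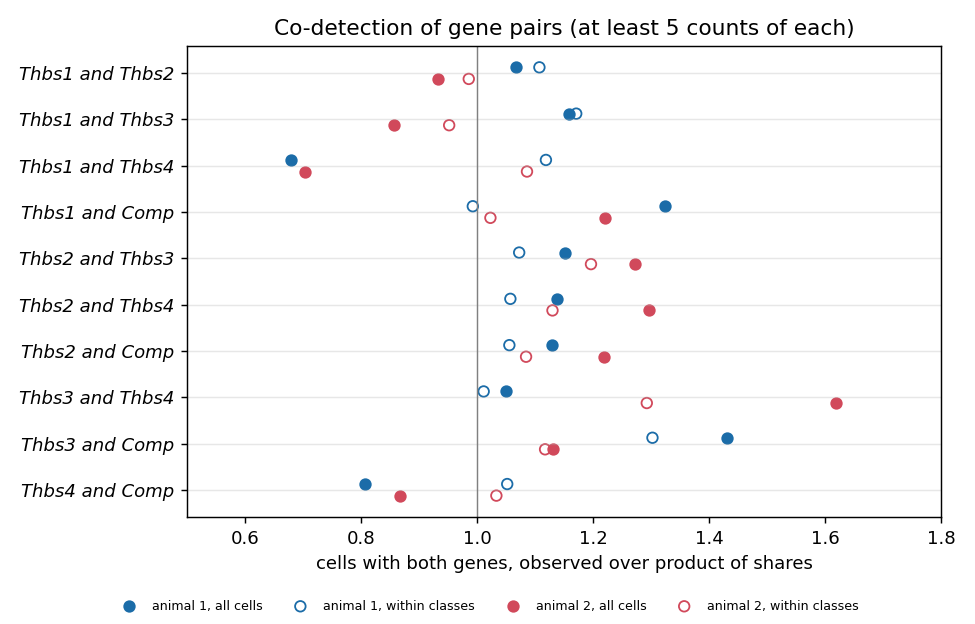
Observed cells with both genes over the product of their shares (x axis) for the 10 gene pairs (y axis), in animal 1 (blue) and animal 2 (red), over all cells (filled) or summed within classes (open). Thbs1 with Thbs4 moves from 0.678 and 0.703 to 1.12 and 1.09, and Thbs1 with Comp from 1.32 and 1.22 to 0.992 and 1.02.

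Genes with the most similar pattern over cells were ranked by the lower of the 2 animals' Spearman correlations, among 3600 genes found in at least 10% of cells of each animal. They are descriptions over 318 and 335 cells that share a library and differ in depth. Those of Thbs1 were cartilage genes, Col9a2 (0.36), Col2a1 (0.36), Col9a1 (0.35), Ucma (0.35) and Hapln1 (0.33). Those of Thbs2 were fibrillar collagen genes and a collagen that binds fibrils, Col1a1 (0.48), Col1a2 (0.43) and Col12a1 (0.40). Thbs4 ran with Angptl1 (0.38), Lgals1 (0.34), Igfbp6 (0.32) and Tmsb4x (0.31). Comp ran with Fmod (0.50), which encodes the collagen-binding proteoglycan fibromodulin, Chad (0.48), Bgn (0.47), Sparc (0.46) and Col11a1 (0.44). For Thbs3 no gene reached 0.3; the highest was Angptl2 with 0.23.

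The partners of these proteins were taken from lists of pathway genes. Of 18 matrix partners (collagens, proteoglycans, matrilins, fibronectin and Fbln1), 7 were called higher and 2 lower in tendon and ligament-like cells by edgeR. The list median there was log2 1.16 beside -0.05 over all genes. Dcn (decorin) was higher by 1.92 ± 0.11 (edgeR, adjusted p = 6.79e-06), Col1a1 by 1.49 ± 0.11 (adjusted p = 6.55e-05) and Col1a2 by 1.30 ± 0.11 (adjusted p = 0.000132). In chondrocyte-like class 3, 6 were higher and 1 lower (list median 0.22 beside 0.34). These were led by Col9a1 (5.75 ± 0.32, adjusted p = 4.99e-06) and Col9a3 (5.54 ± 0.35, adjusted p = 1.31e-05), chains of the collagen IX that Comp binds, and Matn3 (5.54 ± 0.59, adjusted p = 0.00107). These folds too rest on a geometric mean that classes with few counts pull down. Against the plain mean of the other classes, Col9a1 in class 3 stood at 2846 against 676 TMM-scaled CPM in animal 1. In animal 2, Col9a1 stood at 2498 against 611. In fibroblast-like class 7, where Comp had 2 and 11 counts, 4 were higher and 7 lower (list median -0.55 beside 0.03). The lower ones included Col12a1 (-3.02 ± 0.25, adjusted p = 7.72e-05) and Col1a1 (-1.43 ± 0.15, adjusted p = 0.000343), and Col3a1 was higher (1.43 ± 0.11, adjusted p = 7.37e-05). The list did not follow the level of Comp throughout: in chondrocyte-like class 9, where Comp was called higher, 4 were higher and 6 lower (list median -0.95 beside -0.30). There Col9a1 was higher (5.67 ± 0.32, edgeR, adjusted p = 4.50e-06) and Col1a1 lower (-2.27 ± 0.16, adjusted p = 1.96e-05). The fold of Col9a1 has the same limit as in class 3. Of all genes tested, 0.533% were called in class 6, 0.672% in class 3, 3.31% in class 7 and 1.36% in class 9.

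Of 144 pairs of receptor gene and class, 3 passed the test, beside 1.07% of pairs over all genes. Of the 16 genes tested (integrins, Cd36, Cd47, Lrp1 and others), 0 were called in 8 of the 9 classes by edgeR, where 27 of 128 gene and class pairs had an unadjusted p under 0.05 and DESeq2 called 15. In class 7, 3 were higher, Itga6, Itgb3 and Tgfbr2 (log2 6.59 ± 1.36, 5.89 ± 1.36 and 1.42 ± 0.34; adjusted p = 0.0258, 0.0386 and 0.0446). Itgb1 was higher in tendon and ligament-like than in chondrocyte-like cells (2.36 ± 0.42, edgeR, adjusted p = 0.0185). Among 12 proteases and inhibitors, 9 of 108 pairs were called by edgeR. Timp2 was higher in class 6 (1.32 ± 0.20, adjusted p = 0.0156) and class 7 (0.97 ± 0.21, adjusted p = 0.0273), and Adamts7 and Adamts5 were higher in class 7 (adjusted p = 0.0368 and 0.0476). Timp1 was higher in class 8 (1.96 ± 0.23, edgeR, adjusted p = 0.00174). Timp2 and Mmp14 were lower in class 4 (-1.32 ± 0.26 and -2.22 ± 0.44, adjusted p = 0.0412 and 0.0459) and class 9 (-1.36 ± 0.26 and -2.14 ± 0.44, adjusted p = 0.0270 and 0.0415). Of 13 genes of the latent TGF-beta complex and its targets, 1 was called in class 6, Tgfbi (2.13 ± 0.30, edgeR, adjusted p = 0.00911). Ltbp4 was higher in classes 2 and 7 (adjusted p = 0.0193 and 0.0257) and Tgfb2 lower in class 9 (adjusted p = 0.0124). Of 14 genes for folding in the endoplasmic reticulum, 0 were called in any of the 9 classes by edgeR; 18 of 126 pairs had an unadjusted p under 0.05, and DESeq2 called 2.

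A further list is named for other type 1 repeat proteins. Whether each gene of this list encodes the repeat that Thbs1 and Thbs2 carry was not checked. Of its 14 tested genes, Spon2 and Cilp were called higher in tendon and ligament-like cells (5.25 ± 0.27 and 6.99 ± 0.92, edgeR, adjusted p = 6.79e-06 and 0.00783). That is 2 of 14, beside 0.533% of all genes called in this class, with a list median of -0.31. These calls were not limited to that class: Spon2 was also higher in classes 1, 2 and 5 (2.47 ± 0.30, 2.22 ± 0.31 and 3.45 ± 0.29, edgeR, adjusted p = 0.00552, 0.00661 and 0.000273) and Cilp in class 2 (5.97 ± 0.95, adjusted p = 0.0164). Spon2 was lower in chondrocyte-like classes 3, 4 and 9 (log2 -2.82 ± 0.47, -4.84 ± 0.56 and -5.87 ± 0.61, edgeR, adjusted p = 0.0174, 0.00212 and 0.000574). The 6 genes beside Thbs3, Mtx1 among them, were called in 0 of the 9 classes by edgeR and by DESeq2, with an unadjusted p under 0.05 in 8 of 54 pairs.

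Immediate-early genes, which digestion of a tissue is known to raise, were called higher in 2 of the 3 classes where Thbs1 was. Of 19 tested, 4 were called higher in class 3 and 3 in class 4, led by Ier2 (log2 1.25 ± 0.20, edgeR, adjusted p = 0.0171, and 1.81 ± 0.20, adjusted p = 0.00147). In class 9, where Thbs1 was also called higher, 0 of 19 were called by edgeR, and in class 7, where Thbs1 was not called, 4 were lower. Over all genes the share called was 0.672% in class 3, 0.839% in class 4, 1.36% in class 9 and 3.31% in class 7. The list median was nonetheless raised in class 9, at log2 0.87 beside -0.30 over all genes. It was 1.03 beside 0.34 in class 3, 0.93 beside 0.01 in class 4 and -0.90 beside 0.03 in class 7. Summed over the 20 genes of the list, they stood at 11810 and 14921 CPM in class 3 and at 4400 and 5619 CPM in class 5, where Thbs1 was lowest. Class 9 stood at 8836 and 14452 CPM, and class 1 at 9252 and 11460. Over all cells the Spearman correlation of Thbs1 with this sum was 0.26 in animal 1 and 0.26 in animal 2. Within the chondrocyte-like cells it was -0.06 over 90 cells and 0.07 over 107 cells. The part of these genes in the level of Thbs1 between classes was not tested.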

How the data were processed

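The authors deposited 1 table of counts per gene and well, which holds both plates. The submitters' processing notes name mm10 and CASAVA with no role. The counting tool, strand handling and duplicate removal were not given in the sources used here. Per the labels' protocols, cells were released from femurs with collagenase, sorted by FACS into wells, and made into cDNA by template switching. The values are whole numbers with a median of 18 where above 0, so they are taken as reads, not molecules. The genes and gene lists were chosen with earlier results of these data known.

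Wells with under 500 genes or over 20% mitochondrial counts were left out (5 of 658). Kept cells summed to 35542100 counts for animal 1 and 42280920 for animal 2. Clustering was done on 122 of 156 listed marker genes (log of counts per 10000, 20 principal components, 15 neighbours, Leiden resolution 1; leidenalg 0.10.2), and a cluster took the name of the marker list with the highest mean log2 ratio, with at least 3 of its genes raised by a log2 ratio of 1 or more. Sums of counts were made for each animal in the 9 classes with at least 10 cells in each animal (18 libraries), and tested with edgeR 4.0.16 (TMM, filterByExpr, glmQLFit, animal as a block) against the mean of the other classes on the log scale, with Benjamini-Hochberg adjustment over 13700 genes and a threshold of 0.05. The block pairs libraries of the same animal. Nothing says that the 2 animals stand for more than these 2 plates. The fit was tested on simulated data, with 50 genes changed in the tendon and ligament-like class at each size. It called 4% of genes changed by a log2 fold of 1, 62% at 2, 88% at 3 and 48% at -3. False calls numbered 8 among 13237 genes run. A gene that was not called can therefore still differ.

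A gene is detected at 5 counts; intervals are exact (Clopper-Pearson for shares, Poisson for counts, 95%), and a count of 0 allows up to 3 counts. The text names the 5 genes throughout, up to 5 genes per member by correlation (0.3 or more), and up to 3 called genes per list and class. Alternatives were other size factors, no low-count filter, DESeq2 1.42.0, no block, thinned cells, removal of the richest cell, coarser clusters, gates and each animal left out. Promoters are from the RefSeq table of GRCm38.p6; gene models are GENCODE M21.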

Additional observations from a re-analysis of the deposited data

Results flagged for a closer look

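The 5 wells left out for mitochondrial counts (26.7% to 94.2% of their counts) belong to no comparison. They held 4 counts of Thbs2 among 93056 counts in all, above the 3 counts that a count of 0 allows, and no well held more than 2.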

How the results depend on the processing

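The alternatives for the comparisons of tendon and ligament-like cells, and 4 of those for the pathway lists, were chosen after seeing the data. The 19 member calls over classes numbered 19 with DESeq2's size factors, 18 without a low-count filter, 21 with no replicate block (all 19 kept; Thbs4 added in classes 1 and 5), 23 after thinning, 26 by DESeq2, 20 without each gene's richest cell, 19 with coarser clusters (15 shared) and 1 with gates. The 3 calls against chondrocyte-like cells fell to 1 with coarser clusters and 0 with gates, and the 3 against fibroblast-like cells to 0 with gates. Calls over all genes moved from 1325 to 2129 after thinning, 4209 by DESeq2 and 382 with gates, and pathway calls from 108 to 172, 208 and 46 in the same order. With no replicate block these were 1683 and 108. Signs turned in 3 member values: with gates, Thbs4 in class 5 (-0.32) and Thbs1 in class 8 (0.22), and with coarser clusters Thbs2 in class 9 (0.16). Among 87 named pathway values 3 turned with gates and 0 with the others. The cause of these changes was not tested. With 1 animal left out, the 25 called member values kept their sign, as values with no test.

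Detection over all cells depends on the threshold. At 1 count it was 54.2% for Thbs1, 43.8% for Thbs3, 31.7% for Thbs4 and 52.0% for Comp; at 20 counts 33.0%, 23.9%, 19.5% and 31.5%. Thinned, it was 44.4% for Thbs1 and 33.6% for Thbs3. The mean of per-cell CPM was 278 for Thbs4 and 223 for Comp. With 1 animal left out, detection ran from 39.3% to 43.3% (Thbs1), 48.1% to 64.5% (Thbs2), 31.8% to 32.2% (Thbs3), 20.6% to 23.6% (Thbs4) and 38.1% to 41.8% (Comp). Levels ran from 246 to 264, 299 to 533, 114 to 146, 203 to 234 and 231 to 245 CPM in that order. The 2 pairs co-detected less often than their product over all cells became 0 within classes.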
